A study of Caenorhabditis elegans with 16 samples.

Results

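The regions described here are 416 bins of 1000 bp, in 330 separate places of the Caenorhabditis elegans genome, that lost small RNA in hrde-1 mutants of all 4 genetic backgrounds studied but carry neither of the deposited yes/no marks named GRH and GRTS. They were taken from the 25059 unmarked bins that averaged 5 or more RPKM (reads per kilobase and per 1e6 reads) over 16 libraries, out of 100257 bins in the table. A bin was included when its log2(RPKM + 5) value was lower by at least 0.58 in the mutant than in its never mutant counterpart in every background. Those 8 libraries therefore chose the bins, and the losses between them are given as a description with no test. Included bins at most 1 kb apart were joined into regions. In all, 273 regions held 1 bin, 41 held 2, 9 held 3, 2 held 4, 4 held 5 and 1 held 6.

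In the germ line of the worm, the Argonaute HRDE-1 works in the nucleus. It binds secondary siRNAs, which RNA-dependent RNA polymerases make on target transcripts, and with them directs silencing and histone H3 methylation of the matching chromatin from one generation to the next. SET-32 has a SET domain, the fold of many lysine methyltransferases, while MET-2 with SET-25 methylates lysine 9 of histone H3. The series asks, by its title, about SET-32 in the start of nuclear RNAi silencing across generations.

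Each library came from young adult hermaphrodites, and small RNA was cloned without selecting for a 5′ monophosphate. The hrde-1 mutants carried the tm1200 allele alone, with set-32(ok1457), with set-32(red11) or with met-2(n4256) set-25(n5021). In the early repaired libraries the hrde-1 allele had been restored and the line grown to F5, or to F8 in set-32(ok1457), and in the F20 repaired libraries to F20. The never mutant libraries were N2 (wild type) and the same set-32 and met-2 set-25 strains with intact hrde-1. Each of the 16 combinations had 1 library, so no genotype had a replicate. Below, "SET-32-positive" means the met-2 set-25 and wild-type backgrounds.

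Read counts were inferred from the RPKM values, taking the most frequent low value of a library as 1 read. By this estimate the libraries held 143 to 500 reads in the bins in units of 1000 reads (median 329). In the same way 1 read was worth 1.45 to 6.30 RPKM. A value of 0 therefore allows up to 4.35 RPKM in the deepest library and 18.9 RPKM in the shallowest, met-2 set-25 early repaired, counting error only. Of the nonzero values, 22 to 49% lay under 0.9 of a read. The RPKM values summed to 90 to 96.7% of 1e6, the sum that would hold if the total behind the scaling were all in the bins, in 5 libraries and to 67.7 to 80.5% in 11. These 5, the never mutant and mutant libraries of both set-32 alleles and the early repaired met-2 set-25 library, also had the lowest values over the 8 intestine marker genes, 138 to 616 RPKM summed against 4414 to 12429 RPKM in the other libraries. Over the 8 muscle markers they had 70.6 to 332 RPKM against 549 to 2130 RPKM, and over the 8 hypodermis markers 10.3 to 22.9 against 177 to 696 RPKM. Over the 10 neuron markers the ranges overlapped, at 173 to 327 and 132 to 298 RPKM. Mutant and never mutant libraries of 1 background always lay on the same side of this split. Repaired set-32 libraries lay on the other side from their own mutant and never mutant libraries, so the split and the repaired state cannot be told apart in the set-32 backgrounds. All repaired and all set-32 libraries bore the name prefix SG0717, while the wild-type and met-2 set-25 mutant and never mutant libraries bore SG1116 or SG0315. In these extracts of whole animals, fewer germline cells and less small RNA per cell cannot be told apart.

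The bins lay along all 6 chromosomes but unevenly. The X chromosome held 98 of them, 23.6% against 7.74% of all unmarked tested bins. Chromosome IV held 55, 13.2% against 22.8%, and chromosome III also 55, 13.2% against 18.3%. Chromosome V held 75 (18.03% against 14.9%), chromosome I 74 (17.8% against 19.7%) and chromosome II 59 (14.2% against 16.6%). The outer parts of the chromosomes (all but the middle one of 3 equal parts), where fast-evolving gene families and repeats are common, held 81.01% of the bins and 65.2% of all unmarked tested bins.

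Gene content differed in the same descriptive sense. Of the 406 bins whose genes could be named, 278 overlapped a protein-coding gene, 68.5% against 86.4% of all unmarked tested bins. Pseudogenes were overlapped by 59 bins, 14.5% against 4.72%, and 80 bins overlapped no named gene, 19.7% against 8.22%. Genes for piRNAs, the small RNAs bound by the Argonaute PRG-1, were overlapped by 12 bins, 2.96% against 7.84%. None of the bins overlapped a gene for a microRNA, snoRNA, snRNA or rRNA, which 0.64, 0.89, 0.48 and 0.06% of all unmarked tested bins do. Bins close to the deposited marks were frequent: 31 lay within 1 kb of a GRH or GRTS bin (7.45% against 0.99%) and 52 within 5 kb (12.5% against 3.18%). The other bins were mostly far from any mark, and 295 of the 416 lay more than 100 kb away (70.9% against 75.1%). The deposited column "misanotated" was set in 10 bins, 2.40% against 0.60%.

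**Figure D1:**
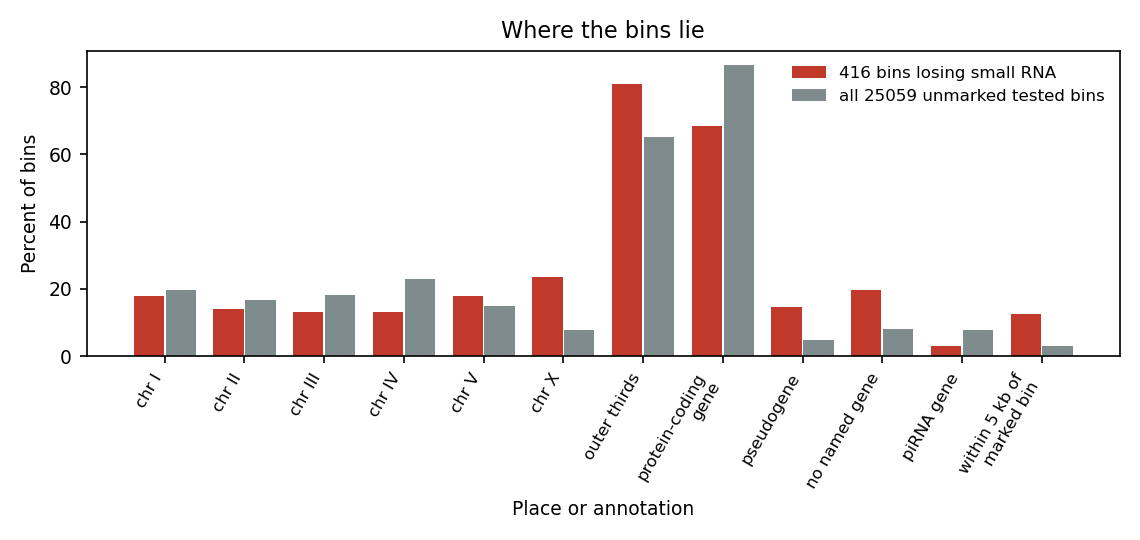
Percent of the 416 bins (red) and of all 25059 unmarked tested bins (grey) on each chromosome, in the outer parts of the chromosomes, over kinds of gene, and near a GRH or GRTS bin. The red bar is about 3 times the grey one for chromosome X (23.6% against 7.74%) and for pseudogenes (14.5% against 4.72%).

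Families of chromosome-arm genes supplied part of the bins. Genes named bath, which code for BTB and MATH domain proteins, lay in 13 of the 94 unmarked tested bins that overlap one (13.8%), and fbxa genes, which code for F-box proteins, in 13 of 162 (8.02%). Of these fbxa bins, 2 and 4 lay in 2 neighbouring regions over fbxa-192 alone, a name that is less certain. For comparison, 1.66% of all unmarked tested bins met the rule. Nuclear hormone receptor genes (nhr) gave 4 of 132, fbxb genes 1 of 66 and fbxc genes 0 of 39. Among chemoreceptor families, srw genes gave 2 of 12, srh genes 2 of 36, str genes 0 of 32 and sri genes 0 of 4.

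Some of the bins had nearly the same values in every library. The values of 14 bins fell into 5 groups whose profiles differed by at most 0.15 on the log2 scale in every library, which left 407 distinct profiles. The largest group had 6 bins on chromosomes I, II, III, IV and V, 1 of them over clec-170, a C-type lectin gene. Whether they share sequence was not examined. Such bins may not be independent observations, yet the counts given here include each of them separately.

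The summed level over the 416 bins shows how far each library carried their small RNA. The mutants had 13748 RPKM in set-32(ok1457), 7969 in set-32(red11), 5673 in met-2 set-25 and 6588 in wild type. Early repaired libraries had 11176 RPKM in set-32(ok1457), 14747 in set-32(red11), 21647 in met-2 set-25 and 21070 in wild type. F20 repaired libraries had 12504, 17033, 18947 and 21986 RPKM in set-32(ok1457), set-32(red11), met-2 set-25 and wild type, and never mutant libraries had 37168, 30989, 19686 and 22621 RPKM in the same 4 backgrounds. All 4 repaired set-32 libraries (11176 to 17033 RPKM) lay below all 4 repaired SET-32-positive libraries (18947 to 21986 RPKM). As shares of all RPKM in a library, these were 1.65 to 2.34% against 2.41 to 2.95%. The never mutant set-32 libraries had the highest sums of all 16, so the order of the backgrounds among never mutants was the opposite one. As shares of all RPKM the gap was smaller, and set-32(red11) was close to wild type. The never mutant shares were 3.89% (ok1457), 3.21% (red11), 2.45% (met-2 set-25) and 3.12% (wild type). Never mutant set-32 libraries lie on the high side of the split in total RPKM described above, and the other never mutant libraries on the low side. The part of that split in the reversed order was not tested.

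**Figure D2:**
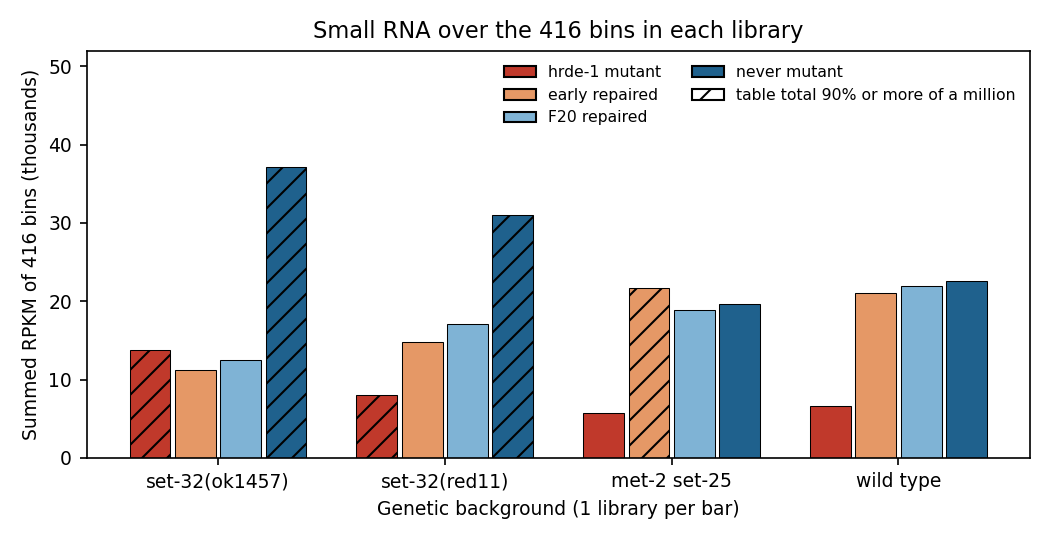
Summed RPKM of the 416 bins, in units of 1000, for each of the 16 libraries, with 1 bar per library and hatching for the 5 libraries whose RPKM values sum to 90% or more of the per-million total. Repaired bars stand near the never mutant bar in met-2 set-25 and wild type, and far under it in both set-32 backgrounds.

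The typical bin was of moderate level. The median of the mean over 16 libraries was 23.6 RPKM (quartiles 11.3 and 49.9, range 5.02 to 570), against 13.9 RPKM over all unmarked tested bins. The loss, averaged over the 4 backgrounds, had a median of -1.42 on the log2(RPKM + 5) scale (quartiles -1.80 and -1.12, range -3.85 to -0.74), while the median over all unmarked tested bins was 0.03. Within 1 background, 24.4% of unmarked tested bins were lower in the mutant by as much as the rule asks in set-32(ok1457), 20.8% in set-32(red11), 19.8% in met-2 set-25 and 17.1% in wild type. Just inside the threshold lay the bin of fbxb-97 at II:1848001-1849000, whose smallest loss was -0.58, and 2 of the group of 6 bins with near-identical values, on chromosomes I and II, at -0.581. Just outside lay bath-34 at I:12750001-12751000, also -0.58 when rounded, and Y38F2AR.12 at IV:2403001-2404000 and sra-30 with Y40H7A.7 at IV:15198001-15199000, both -0.579. Only the small difference in 1 background separates these 3 from the included bins.

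Whether the small RNA came back after repair was read without the libraries that chose the bins. For this, bins were chosen by the same rule in 3 backgrounds (averaging 5 or more RPKM over their 12 libraries) and read in the background left out. The bins so chosen numbered 634 for set-32(ok1457), 619 for set-32(red11), 716 for met-2 set-25 and 895 for wild type. In the background left out, the mutant lay at least 0.58 below the never mutant library in 65% of them for set-32(ok1457), 68.0% for set-32(red11), 57.3% for met-2 set-25 and 46.4% for wild type. The same loss was seen in 24.6, 20.7, 19.2 and 16.3% of all unmarked bins for these backgrounds. Only 1 library stood on each side of such a difference, so it has no replicate check.

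In met-2 set-25 and wild type the repaired libraries stood at the level of the never mutant ones over these bins. In wild type the median was 8.64 RPKM in the mutant, 19.3 RPKM early after repair, 19.5 RPKM at F20 and 14.5 RPKM in the never mutant library. The median difference between repaired and never mutant libraries was 0.23 early (quartiles -0.37 and 0.97) and 0.21 at F20 (quartiles -0.36 and 0.87), where all unmarked bins had 0.18 and 0.19. In met-2 set-25 the medians were 7.04 RPKM in the mutant, 15 RPKM early, 16.2 RPKM at F20 and 16.8 RPKM in the never mutant library. The median differences from never mutant were 0.03 early and 0.04 at F20, against -0.14 and -0.04 over all unmarked bins. The early met-2 set-25 library lies across the table-total split from its never mutant library, and the F20 one and both wild-type ones do not.

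In both set-32 backgrounds the repaired libraries stood below the never mutant ones. In set-32(ok1457) the median was 17.1 RPKM in the mutant, 13.7 RPKM early, 13.3 RPKM at F20 and 35.0 RPKM in the never mutant library. The repaired libraries were no higher than the mutant, with median differences of -0.23 early (quartiles -0.90 and 0.36) and -0.17 at F20 (quartiles -0.87 and 0.39), both close to the median of all unmarked bins, -0.23. In set-32(red11) the median was 8.75 RPKM in the mutant, 12.16 RPKM early, 13.7 RPKM at F20 and 24.5 RPKM in the never mutant library. Here the repaired libraries stood above the mutant, by 0.28 early and 0.39 at F20, against -0.19 and -0.32 over all unmarked bins. Median differences from never mutant were -1.08 early and -0.99 at F20 in set-32(ok1457), and -0.57 and -0.53 in set-32(red11), where all unmarked bins had -0.29, -0.32, -0.23 and -0.37.

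This shortfall depended on which backgrounds chose the bins. With bins chosen in met-2 set-25 and wild type only, the median differences from never mutant in set-32(ok1457) were -0.36 early and -0.38 at F20, within 0.08 of the median of all unmarked bins. In set-32(red11) they were -0.31 and -0.32, or 0.09 below and 0.04 above that median. In those bins the mutant loss was smaller as well: it reached 0.58 in 40.5% of them in set-32(ok1457) and 41.3% in set-32(red11), against 24.5 and 20.5% of all unmarked bins, with medians of -0.32 and -0.33. This choice left out the other set-32 allele, whose mutant and never mutant libraries lie on the same side of the table-total split, and also used 2 backgrounds in place of 3. The shares with a loss were smaller in met-2 set-25 and wild type too, at 40.1 and 33.1%, when bins were chosen in the set-32 backgrounds only. The parts of the allele, of the number of choosing backgrounds and of the split were not tested.

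**Figure D3:**
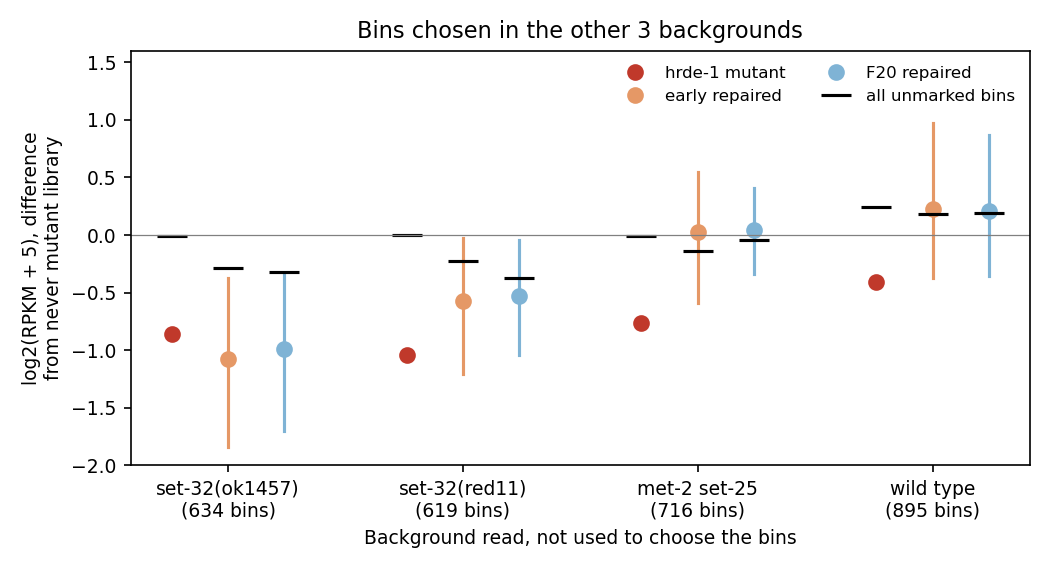
Median difference from the never mutant library, log2(RPKM + 5), in the background named on the axis, for bins chosen in the other 3 backgrounds (dots, with quartile lines for the repaired libraries) and for all unmarked bins (dashes). Repaired dots lie at -1.08 to -0.53 in the set-32 backgrounds and at 0.03 to 0.23 in met-2 set-25 and wild type.

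Single regions ranged from full return to none. Over the 330 regions, the mean of the 8 repaired libraries was at or above that of the 4 never mutant libraries in 17, lower by at least 0.58 in 162 and by at least 1 in 56. In 15 regions all 8 repaired libraries lay below all 4 never mutant ones, and in 9 the repaired mean was at or under the mutant mean. Never mutant levels helped to choose the regions, and the same counts were not made over the other unmarked bins. These counts therefore describe and test nothing.

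The strongest shortfall was over C18H2.9, a pseudogene at III:7669001-7671000. Its mutants had 90.2 RPKM (ok1457), 8.93 (red11), 12.6 (met-2 set-25) and 4.67 (wild type). The early repaired libraries had 0.38 RPKM (ok1457), 6.98 (red11), 13.1 (met-2 set-25) and 195 (wild type), and the F20 repaired libraries 8.21 (ok1457), 13.2 (red11), 86.9 (met-2 set-25) and 185 RPKM (wild type). The never mutant libraries had 295 RPKM (ok1457), 246 (red11), 126 (met-2 set-25) and 118.8 (wild type). Both repaired wild-type libraries were above their never mutant counterpart, while repaired set-32 libraries stayed under 14 RPKM in all 4 cases.

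T28D6.4, a protein-coding gene that filled 5 bins at III:11361001-11366000 with the noncoding gene T28D6.14, was below the never mutant range in every repaired library. Mutants had 17.9 RPKM (ok1457), 1.6 (red11), 2.35 (met-2 set-25) and 0.44 (wild type). Repaired libraries had 0.71 and 0.81 RPKM (ok1457, early and F20), 1.25 and 0.73 (red11), 1.27 and 3.18 (met-2 set-25), and 5.58 and 13.7 (wild type). Never mutant libraries had 53.8 RPKM (ok1457), 32.3 (red11), 51.1 (met-2 set-25) and 18.6 (wild type). No repaired value reached any never mutant value here. The F20 wild-type library, at 13.7 RPKM, came near its own never mutant library, at 18.6 RPKM. The repaired set-32 and met-2 set-25 libraries remained far below theirs. E02H9.3, at III:2464001-2465000, had 6.09 to 35.1 RPKM over the 8 repaired libraries and 28.8 to 174 RPKM over the never mutant ones, overlapping only through the F20 repaired met-2 set-25 library.

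Bins over fbxa-192, an F-box gene, formed 2 neighbouring regions at V:17642001-17644000 and V:17646001-17650000. In the second, repaired libraries had 8.90 and 12.15 RPKM (ok1457, early and F20), 14.6 and 18.01 (red11), 2.0 and 4.51 (met-2 set-25) and 101 and 89.1 (wild type). Mutants had 8.43 to 49.03 RPKM and never mutant libraries 53.2 to 130 RPKM. The wild-type line alone was back at the never mutant range after repair. The gene name is less certain, since the bins of that megabase matched the annotation poorly.

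The largest losses in the mutants lay over uncharacterised genes. Y38F2AL.12 (IV:2317001-2319000) had 20.4 RPKM (ok1457), 5.28 (red11), 0.01 (met-2 set-25) and 1.20 (wild type) in mutants, a mean loss of -3.38 ± 0.79 (SD over 4 backgrounds). Early repaired libraries had 4.52 RPKM (ok1457), 11.7 (red11), 66.2 (met-2 set-25) and 38.7 (wild type), and F20 repaired ones 16.3, 5.03, 68.7 and 42.8 RPKM in the same backgrounds. Never mutant libraries had 122 RPKM (ok1457), 111 (red11), 51.2 (met-2 set-25) and 112 (wild type). The met-2 set-25 line passed its never mutant level after repair and the wild-type line did not.

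A bin with no named gene at II:2160001-2161000, 1 kb from a marked bin, differed between the set-32 alleles at F20 but not early. Its mutants had 10.7 to 48.8 RPKM and its never mutant libraries 122 to 203 RPKM. At the early generation it had 7.28 RPKM (ok1457), 8.44 (red11), 175 (met-2 set-25) and 95.2 (wild type), and at F20 23.8 RPKM (ok1457), 123 (red11), 128 (met-2 set-25) and 109 (wild type). The red11 line was therefore among the low values early and among the high ones at F20. Y102A5C.36 (V:16927001-16928000, also with an uncertain name) had a like pattern, with 16.2 RPKM early and 101 RPKM at F20 in red11, and 9.04 and 9.78 RPKM in ok1457.

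Y38F2AR.12 appeared at IV:2402001-2403000 and IV:2404001-2405000, and the bin between them narrowly missed the rule. In the first, repaired libraries ran from 9.04 to 80.96 RPKM against 36.3 to 77.2 RPKM in never mutant ones, and in the second from 4.66 to 85.6 RPKM against 46.6 to 114 RPKM. T16G12.3 with T16G12.12 (III:10054001-10055000) had 9.67 to 36.4 RPKM in repaired and 16.6 to 82.0 RPKM in never mutant libraries. Over Y69A2AL.2 (IV:2483001-2485000) the met-2 set-25 line remained low after repair, at 7.23 RPKM early and 4.1 RPKM at F20, but its never mutant library had only 9.67 RPKM. Y55B1BR.6 (III:453001-454000) came closer to its former level, with 63.2 to 161 RPKM in repaired and 104 to 240 RPKM in never mutant libraries.

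Among the most abundant regions, T23B12.14, a noncoding gene at V:8484001-8485000, had the second highest never mutant levels. Mutants had 413 RPKM (ok1457), 60.2 (red11), 32.8 (met-2 set-25) and 88.6 (wild type). Early repaired libraries had 87.4 RPKM (ok1457), 237 (red11), 283 (met-2 set-25) and 664 (wild type), and F20 repaired libraries 192 (ok1457), 547 (red11), 295 (met-2 set-25) and 646 RPKM (wild type). Never mutant libraries had 825 RPKM (ok1457), 651 (red11), 255 (met-2 set-25) and 512 (wild type). In ok1457 both repaired libraries were below the mutant.

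The region of srh-48, a chemoreceptor gene, with C06C3.5 and C06C3.13 (II:9380001-9382000) separated the set-32 alleles. Repaired ok1457 libraries had 12.3 RPKM early and 21.4 RPKM at F20, and repaired red11 libraries 277 RPKM at both times. Repaired met-2 set-25 had 58.3 and 145 RPKM and repaired wild type 49.8 and 193 RPKM, against 206 to 534 RPKM in the never mutant libraries. The bin of ceh-20, a homeodomain gene of the PBC class, and F31E3.8 (III:6981001-6982000) had 143 to 220 RPKM in repaired set-32 libraries, 317 to 385 RPKM in repaired SET-32-positive ones and 376 to 433 RPKM in never mutant ones. fbxa-218 (III:12440001-12441000) had 157 to 378 RPKM in repaired and 283 to 632 RPKM in never mutant libraries. A bin with no named gene at I:2059001-2060000 had 92.7 to 226 RPKM in repaired set-32, 246 to 309 RPKM in repaired SET-32-positive and 212 to 492 RPKM in never mutant libraries.

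Of the 219 unmarked tested bins over germline small RNA factors, 2 met the rule (0.91%, against 1.66% of all unmarked tested bins, a difference that was not tested). eri-6 codes for part of the ERI-6/7 helicase, needed for primary siRNAs bound by the Argonaute ERGO-1. Its bin at I:4464001-4465000, 1 kb from a marked bin, had 424 RPKM (ok1457), 298 (red11), 218 (met-2 set-25) and 310 (wild type) in mutants. Early repaired libraries had 515 RPKM (ok1457), 753 (red11), 611 (met-2 set-25) and 549 (wild type), and F20 repaired ones 641 (ok1457), 757 (red11), 517 (met-2 set-25) and 592 RPKM (wild type). Never mutant libraries had 992 RPKM (ok1457), 971 (red11), 431 (met-2 set-25) and 535 (wild type). Repaired libraries passed the never mutant level in met-2 set-25 and wild type, and were between mutant and never mutant in both set-32 alleles.

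The other bin, at V:15005001-15006000, lies over mut-15, a component of mutator foci where secondary siRNAs are made, and hrde-2, a factor of small RNA loading onto HRDE-1. It had 9.38 to 28.8 RPKM in mutants, 14.9 to 28.1 RPKM in repaired libraries and 23.2 to 51.4 RPKM in never mutant ones, so the groups overlapped. R03D7.2 (II:10932001-10933000) was the only one of 8 tested bins over the listed nuclear RNAi targets. Over those 8 bins the median of mutant minus never mutant was 0.62, the opposite direction. R03D7.2 had 35.6 to 111 RPKM in mutants, 90.9 to 175 RPKM in repaired libraries and 145 to 290 RPKM in never mutant ones. fbxb-97, the only one of 31 ERGO-1 target bins, had 33.1 to 49.4 RPKM in mutants, 41.2 to 96.3 RPKM in repaired and 68.6 to 103 RPKM in never mutant libraries. No bin came from the lists of sperm genes (0 of 57 tested bins), oocyte and germline genes (0 of 115), intestine (0 of 36), muscle (0 of 31) or hypodermis markers (0 of 6), or histone genes (0 of 73). Of the 12 bins over neuron markers 1 was included, over rab-3, which codes for a synaptic vesicle GTPase. Among all unmarked tested bins 1.66% met the rule, so counts of 0 or 1 in lists this short say little.

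At the other end, a few regions stood above their never mutant mean after repair, and the 5 highest follow. Y56A3A.28 (III:11964001-11965000) had 4.16 to 19.42 RPKM in repaired and 5.91 to 15.2 RPKM in never mutant libraries. A bin with no named gene at I:7895001-7896000 had 22.4 to 80.0 RPKM in repaired set-32, 1.38 to 57.1 RPKM in repaired SET-32-positive and 5.80 to 25.7 RPKM in never mutant libraries. One at IV:4187001-4188000 had 83.2 to 139 RPKM in repaired set-32, 10.6 to 50 RPKM in repaired SET-32-positive and 29.5 to 57.6 RPKM in never mutant libraries. tmem-120, which codes for a transmembrane protein (III:1510001-1511000), had 6.51 to 39.1 RPKM in repaired and 10.2 to 30.2 RPKM in never mutant libraries, and Y71H2B.8 (III:2582001-2583000) had 9.31 to 26.1 and 4.63 to 37.8 RPKM.

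**Figure D4:**
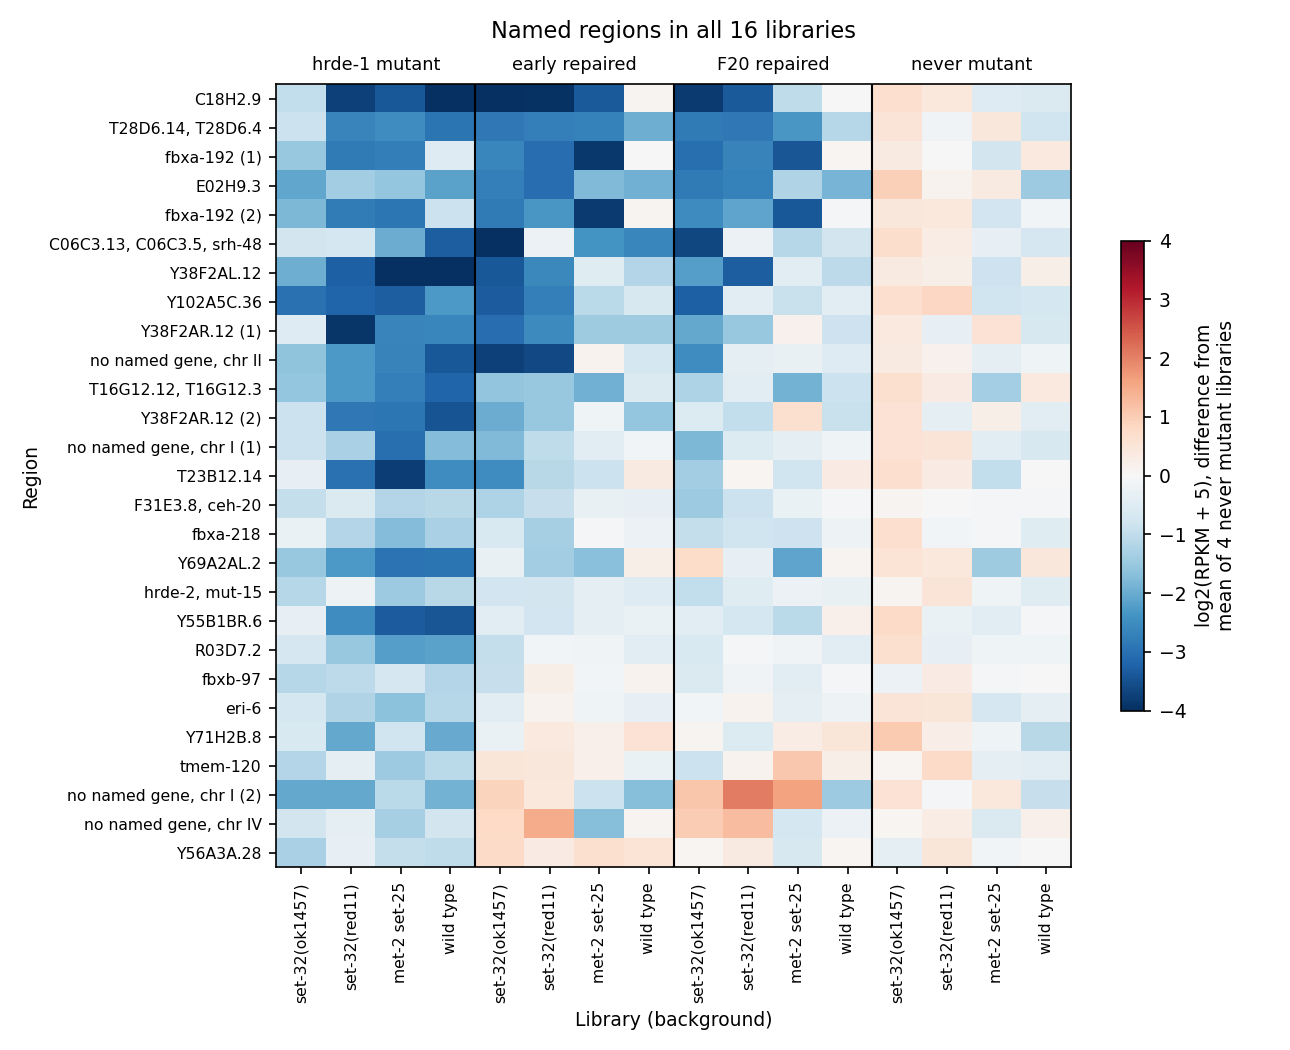
Level of the named regions in all 16 libraries, as the difference in log2(RPKM + 5) from the mean of the 4 never mutant libraries, with libraries grouped by hrde-1 state and regions ordered from the lowest to the highest repaired mean. C18H2.9 and T28D6.4 remain blue in repaired set-32 libraries, while eri-6 is near white in the repaired libraries.

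The 8 repaired libraries took no part in the choice of the bins other than through the overall mean, and comparisons among them were tested. The fit, limma with a trend over 25407 bins, adjusted p-values over all of them (Benjamini-Hochberg), and a bin was called at an adjusted p under 0.05. Libraries of different backgrounds or generations served as replicates, so p-values measure the spread between these and not between cultures. The early and F20 libraries of a background come from the same repaired line and entered as if independent.

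Time after repair made no difference that passed the test. Between F20 and early repaired libraries, with the background as a block, limma called 0 of 25407 bins in either direction (0.0%), and 0 of the 416. At an unadjusted p under 0.05, 25 of the 416 were higher at F20 (6.01%) and 4 lower (0.96%), against 2.08% and 2.45% of all tested bins. The median difference over the 416 was 0.05 (quartiles -0.14 and 0.31), against -0.01 over all tested bins.

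SET-32 status separated a part of the bins. Of the 416, 23 in 18 regions were lower in repaired set-32 than in repaired SET-32-positive libraries (5.53%) and 0 were higher, where limma called 0.579% of all tested bins lower and 0.417% higher. At an unadjusted p under 0.05, 34.1% of the 416 bins were lower and 5.77% higher, against 6.92% and 4.7%. The median difference was -0.45 on the log2(RPKM + 5) scale (quartiles -1.06 and 0.11), with 297 of the 416 bins below 0, against a median of -0.04 over all tested bins. All 4 repaired set-32 libraries lay below all 4 SET-32-positive ones in 93 bins (22.4%, against 4.1% of unmarked tested bins), and above them in 7 (1.68%, against 2.98%).

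The same difference taken within each state had the opposite sign before repair. Set-32 libraries were above SET-32-positive ones by a median of 0.47 in mutants and 0.48 in never mutant libraries, where all unmarked bins had 0.18 and 0.33. In early repaired libraries the median was -0.50 against 0.02, and at F20 -0.39 against -0.10. Mutant and never mutant values are from the libraries that chose the bins and are given as a description. In those states the set-32 libraries lie on the high side of the table-total split and bear SG0717. The SET-32-positive ones lie on the low side and bear SG1116 or SG0315. Among repaired libraries all bear SG0717, and only early met-2 set-25 lies on the high side. The part of this in the change of sign was not tested.

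The calls depended on the ok1457 line and on counting early and F20 libraries singly. Without ok1457, 0 of the 416 bins were called lower and the median was -0.29. With early and F20 libraries averaged for each background, 0 were called. At an unadjusted p under 0.05, 114 of the 416 were then lower and 17 higher, against 1062 and 793 of all 25407 tested bins. With a term for the table-total split 14 of the 416 were called lower, against 75 of all tested bins. Among bins chosen in the wild-type and met-2 set-25 pairs alone 37 of 1441 were lower (2.57%, median -0.13), and among those chosen in the set-32 pairs alone 47 of 2140 (2.20%, median -0.24), against 0.487% of all unmarked tested bins. Intestine markers summed to 5196 to 9002 RPKM in repaired set-32 and 616 to 6343 RPKM in repaired SET-32-positive libraries, muscle markers to 580 to 937 and 284 to 588 RPKM, hypodermis markers to 227 to 384 and 10.3 to 223 RPKM, and neuron markers to 132 to 167 and 132 to 327 RPKM. Their part in the difference was not tested.

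**Figure D5:**
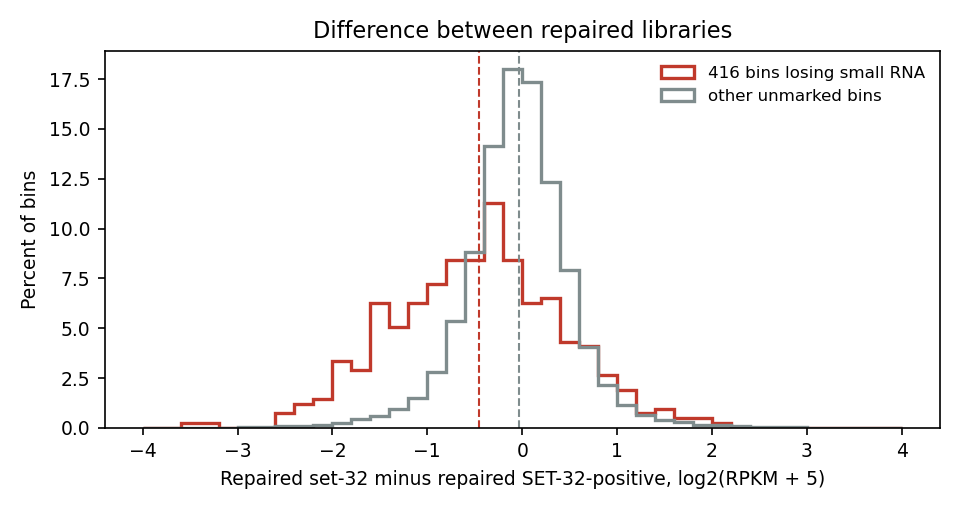
Distribution of the difference in log2(RPKM + 5) between the means of 4 repaired set-32 and 4 repaired SET-32-positive libraries, for the 416 bins (red) and all other unmarked tested bins (grey), as percent of bins, with medians dashed. The red distribution has its median at -0.45 and a shoulder on the side of lower values in set-32.

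Called bins lay over genes of varied function. F13A7.11 (V:16394001-16395000) had the largest difference, -3.49 ± 0.43 (SE, adjusted p = 0.00495 by limma). Its repaired set-32 libraries had 3.01 and 3.29 RPKM (ok1457, early and F20) and 8.11 and 29.7 RPKM (red11), against 176 and 144 RPKM (met-2 set-25) and 121 and 137 RPKM (wild type). Mutants had 3.14 to 65.7 RPKM and never mutant libraries 78.3 to 172 RPKM, so repaired SET-32-positive lines were within or just above the never mutant range and repaired set-32 lines within or just under the mutant range. Its name is less certain, as the match to the annotation was weak in that megabase.

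The first bin of C18H2.9 was also lower, by -3.29 ± 0.66 (SE, adjusted p = 0.0417 by limma), but there the early met-2 set-25 library, at 19.1 RPKM, overlapped the set-32 range of 0.55 to 21.1 RPKM. cdh-12, a cadherin gene, was lower in 2 bins at III:1177001-1178000 (-2.57 ± 0.52, adjusted p = 0.0427 by limma) and III:1180001-1181000 (-1.81 ± 0.35, adjusted p = 0.037). In the first, repaired set-32 libraries had 3.01 to 29.7 RPKM and SET-32-positive ones 46.9 to 157 RPKM. The second bin of Y38F2AL.12 was lower by -2.38 ± 0.44 (adjusted p = 0.0298 by limma), with 3.15 to 29.3 RPKM in repaired set-32 and 63.5 to 120 RPKM in repaired SET-32-positive libraries.

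A run of 4 called bins at II:8289001-8293000, with no named gene and the deposited "misanotated" mark, was very even. The first of them had 3.82 to 6.07 RPKM in repaired set-32 libraries and 23.4 to 53.02 RPKM in repaired SET-32-positive ones (-2.01 ± 0.30, adjusted p = 0.0121 by limma). Its mutants had 1.20 to 10.9 RPKM and its never mutant libraries 29.2 to 54.6 RPKM. vps-32.2, which codes for a subunit of the membrane-bending ESCRT-III complex (V:7851001-7852000), had 2.28 to 7.32 RPKM in repaired set-32 and 22.1 to 46.9 RPKM in repaired SET-32-positive libraries (-2.01 ± 0.34, adjusted p = 0.0194 by limma). The groups did not overlap in either place.

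Other called bins lay over Y61A9LA.5 (V:4557001-4558000), chs-2, a chitin synthase gene with 2 bins at II:208001-210000, jip-1, which codes for a JNK-interacting scaffold protein (II:1339001-1340000), and pan-1, which codes for a leucine-rich repeat protein (III:4564001-4565000). Y73F8A.26 (IV:15476001-15477000), Y20F4.4 (I:2041001-2042000), F41G4.7 (2 bins at X:16834001-16836000), C15C6.1 with C15C6.6 (I:12202001-12203000) and ZK666.8 (II:10493001-10494000) followed, with bins at I:14248001-14249000 and V:20299001-20300000 for which no gene is named. Their differences ran from -2.0 to -1.24. chs-2 had 0 to 2.29 RPKM in its first bin in repaired set-32 libraries and 12.21 to 30.4 RPKM in repaired SET-32-positive ones. Y20F4.4, the most abundant called bin, had 45.3 to 132 RPKM and 236 to 456 RPKM in these groups. Of the 23 bins, 2 were on the X chromosome.

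The X chromosome, which held the most bins, had the smallest median difference by SET-32 status. It was -0.14, with 56 of 98 bins below 0, against medians of -0.57 to -0.39 on the other 5 chromosomes. Its bins also had the lowest median never mutant level, 24.8 RPKM against 35.5 to 51.8 RPKM on the others. The scale used understates changes of low bins, and medians over all unmarked bins of each chromosome were not taken. The bins over no named gene had a median of -0.25, with 47 of 80 below 0. Bins within 5 kb of a mark had -0.41 and those farther away -0.45. The differences between these classes were not tested.

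eri-6, R03D7.2 and fbxb-97 did not pass the test by SET-32 status, with differences of 0.22 ± 0.19, -0.15 ± 0.26 and -0.24 ± 0.30 (SE; adjusted p = 0.739, 0.891 and 0.83 by limma).

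Repaired met-2 set-25 libraries were lower than repaired wild-type ones over some of the bins, with no common shift. Bins called higher were no more frequent than among all tested bins. Between repaired met-2 set-25 and repaired wild-type libraries, 15 of the 416 were lower (3.61%), in 9 regions, and 2 higher (0.481%), where limma called 0.453% of all tested bins lower and 0.728% higher. The median over the 416 was 0.02 (quartiles -0.61 and 0.50), with 206 below 0 and 210 above. This comparison has 2 libraries a side. No bin was called with early and F20 libraries averaged per background, which left 1 value a side (median over the 416 0.02). With the table-total term, which fits the early met-2 set-25 library by itself, none was called either (median -0.07). As fitted, 57 of the 416 were lower (13.7%) and 31 higher (7.45%) at an unadjusted p under 0.05, against 5.66% and 6.9% of all tested bins. The early repaired met-2 set-25 library, the shallowest, has a table total unlike that of the others, and its part was not tested.

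The lower bins included all 6 of fbxa-192, with differences from -4.39 to -3.14. At V:17646001-17647000 repaired met-2 set-25 libraries had 6.30 RPKM early and 0.84 RPKM at F20, against 174 and 158 RPKM in repaired wild type (-4.39 ± 0.48 SE, adjusted p = 0.00437 by limma). The never mutant met-2 set-25 library had 110 RPKM there, well above its repaired counterparts. The repaired set-32 libraries were also low, at 4.72 to 16.7 RPKM. trp-4, which codes for a mechanosensory TRPN channel, had 3 bins at I:13905001-13908000, with differences from -3.17 to -2.14. In its second bin repaired met-2 set-25 libraries had 0 RPKM early and 7.02 RPKM at F20, against 63.5 and 65.95 RPKM in repaired wild type (-3.17 ± 0.47 SE, adjusted p = 0.00983 by limma). A value of 0 in that early library allows up to 18.9 RPKM. The repaired set-32 libraries were low there too, at 0 to 3.25 RPKM, so only wild type stood high after repair. Never mutant libraries had 16.8 RPKM in met-2 set-25 and 31.9 RPKM in wild type.

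The lower group also had the bins of ads-1 with Y50D7A.1 (III:296001-297000), Y52B11A.11 (I:11070001-11071000), H12D21.9 with H12D21.10 (V:14906001-14907000) and Y48G1BM.6 with Y48G1BM.10 (I:234001-235000). Bins at I:13991001-13992000 and V:19765001-19766000 have no gene named. At the last, repaired met-2 set-25 libraries had 6.30 and 6.56 RPKM, repaired wild type 61.3 and 75.3 RPKM and repaired set-32 libraries 51.05 to 66.6 RPKM, but the never mutant met-2 set-25 library also had only 9.0 RPKM. That library was low as well at Y52B11A.11 (5.59 RPKM), H12D21.9 (4.65) and I:13991001-13992000 (2.48), where never mutant wild type had 27.6, 8.22 and 68.9 RPKM. At ads-1 and Y48G1BM.6 it had 36.4 and 88.8 RPKM, against 59.6 and 205 RPKM in never mutant wild type.

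The 2 higher bins lay over rimb-1 and tns-1. rimb-1, which codes for a RIM-binding protein (III:1804001-1805000), had 120 RPKM early and 45.7 RPKM at F20 in repaired met-2 set-25, against 5.52 and 4.91 RPKM in repaired wild type (2.96 ± 0.49 SE, adjusted p = 0.016 by limma). Its never mutant libraries had 11.2 RPKM in met-2 set-25 and 13.1 RPKM in wild type, so the repaired met-2 set-25 line exceeded them. tns-1, which codes for the focal adhesion protein tensin (I:5592001-5593000), had 25.2 and 31.6 RPKM in repaired met-2 set-25, against 0 and 4.89 RPKM in repaired wild type (2.24 ± 0.47 SE, adjusted p = 0.0465 by limma). There the never mutant met-2 set-25 library was the highest of all 16, at 52.1 RPKM.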

How the data were processed

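The authors deposited 1 RPKM value per library and 1000 bp bin, plus 3 yes/no columns. Per the submitters' processing notes, Bowtie 0.12.7 was used. Not given in the sources used here are the read total behind RPKM, the handling of reads matching several places, and the genome build. Another 27 library columns matched no sample and were not used. Bins sum both strands and all read lengths.

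Values were analysed as log2(RPKM + 5), which understates changes of low bins. The 416 bins, the gene lists and the tests were chosen with earlier results of these data known. Named regions are the 10 with the largest mean loss, the 6 with the highest never mutant level, the 5 highest and 5 lowest repaired relative to never mutant, bins called among repaired libraries (all are given), those over listed genes, and those at the threshold. limma 3.58.1 (R 4.3.3, trended eBayes, two-sided) was fitted to the 25407 bins averaging 5 RPKM or more, and was tested on simulated data. Time after repair had the background as a block; set-32 and met-2 set-25 were compared among the 8 repaired libraries with background class and time as terms.

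Genes were those of the WBcel235 annotation overlapping a bin on either strand, without piRNA genes. The last bins of chromosomes I and V end before the last annotated gene, so the builds were compared in 100 windows: 97 matched best at shift 0. Names on chromosome V from 19 Mb (10 of the 416 bins) were withheld, and 35 bins lay in weakly matched or unchecked windows. Coordinates are those of the deposited bins.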

Additional observations from a re-analysis of the deposited data

Results flagged for a closer look

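Among 112 groups of 4 libraries examined, 1 library lay apart from the other 3 in 18, by a gap above Dixon's critical value for 4 samples. The critical value flags about 1 in 20 groups only if groups are independent, normally distributed and not picked by their values. These regions were picked partly by their mutant, never mutant and repaired levels, so the 18 cannot be set against that rate.

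In mutants, set-32(ok1457) was the high library over C18H2.9 (90.2 RPKM), both regions of Y38F2AR.12 (25.6 and 51.2 RPKM), Y55B1BR.6 (111 RPKM), T23B12.14 (413 RPKM) and T28D6.4 (17.9 RPKM), 6 of the 18. In mutants over the unnamed bin I:7895001-7896000, met-2 set-25 was high, at 4.69 RPKM. That value is at the floor, since 1 read was worth 2.35 RPKM in that library and a value of 0 allows up to 7.05 RPKM. Among early repaired libraries wild type was high over C18H2.9 (195 RPKM), T28D6.4 (5.58 RPKM) and both regions of fbxa-192 (66.3 and 101 RPKM), and among F20 repaired libraries over the fbxa-192 regions (71.6 and 89.1 RPKM). Over the first region of Y38F2AR.12, met-2 set-25 was high both early (44.1 RPKM) and at F20 (80.96 RPKM). Among never mutant libraries met-2 set-25 was low over Y38F2AL.12 (51.2 RPKM) and Y69A2AL.2 (9.67 RPKM), and set-32(ok1457) was high over R03D7.2 (290 RPKM).

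Over bins chosen in the other 3 backgrounds, the median of early repaired minus never mutant was negative in set-32(ok1457) (-1.08) and set-32(red11) (-0.57) and positive in met-2 set-25 (0.03) and wild type (0.23). At F20 the medians were -0.99, -0.53, 0.04 and 0.21 in these backgrounds. The difference in sign between the set-32 and the SET-32-positive backgrounds was not tested.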

How the results depend on the processing

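Of 287 values recomputed under another setting, 223 kept their size within the limits used (1.5 times for counts, the spread for other values) and 64 moved. Changes of sign were not labelled apart, and some values near 0 changed sign. Over the settings, early repaired minus never mutant in wild type ranged from -0.05 to 0.3. The median of repaired met-2 set-25 against repaired wild type ranged from -0.07 to 0.02. With 0.58 replaced by a loss of 1, 122 bins met the rule, and with a pseudocount of 10 RPKM 265. Chosen in 3 backgrounds, 619 to 895 did. With a loss of 1, 53.3% of bins chosen elsewhere were also lost in set-32(ok1457). With bins chosen in the other SET-32 class, the shares were 40.5% in set-32(ok1457), 41.3% in set-32(red11), 40.1% in met-2 set-25 and 33.1% in wild type, and repaired minus never mutant in set-32(ok1457) was -0.36 early and -0.38 at F20. Repaired minus mutant in set-32(ok1457) at F20 ranged from -0.34 to 0.06 over the settings.

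For repaired set-32 against repaired SET-32-positive libraries, 106 bins were called higher and 147 lower, of the 416 bins 0 and 23. A pseudocount of 1 gave 64 and 91, of the 416 0 and 12. A pseudocount of 10, and centring each library on its median, each gave 1 of the 416 higher. Without a filter on low bins 0 were called in either direction, of the 416 also 0. A term for the table-total split gave 53 and 75, of the 416 0 and 14. Averaging early and F20 gave 1 and 3, of the 416 0 and 0. Leaving out 1 background gave 5 to 224 higher and 13 to 454 lower, of the 416 0 to 7 and 0 to 32. The low ends came without set-32(ok1457). Without wild type 7 of the 416 were higher and 27 lower, and without set-32(red11) 1 and 32. The share called lower was 2.57% of bins chosen in the wild-type and met-2 set-25 pairs and 2.2% of those chosen in the set-32 pairs. The median over the 416 ranged from -0.59 to -0.29.

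For repaired met-2 set-25 against repaired wild type, 185 bins were called higher and 115 lower, of the 416 2 and 15. A pseudocount of 1 gave 42 and 58, of the 416 0 and 9, and a pseudocount of 10 gave 4 of the 416 higher. Centring gave 178 lower. A minimum mean of 10 RPKM gave 1 of the 416 higher. Without a filter, with the table-total term and with early and F20 averaged, 0 were called. Leaving out a set-32 background gave 174 to 187 lower, of the 416 4 to 5 higher and 23 to 24 lower. Fits without met-2 set-25 or wild type could not be made. Between F20 and early, 0 were called under every setting run.

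The labels give no replicate numbers, and time after repair was paired by background as a block. Without the block 0 bins were called as well. At an unadjusted p under 0.05, 6 of the 416 were then higher and 0 lower, against 276 and 274 of all 25407 tested bins. The causes of these changes were not tested. An inferred depth of 143 to 500 reads per library, in units of 1000, limits what can be seen at low bins. Having 1 library per genotype limits every comparison.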
